A study of Mus musculus with 8 samples.

Results

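The translation elongation factor genes described here were Eef1a1, Eef1a2, Eef1b2, Eef1d, Eef1g, Eef2 and Eef2k, 7 of the 22609 gene symbols counted in each library. They were chosen by name. The family was taken up because of Eef1a2, whose sex difference in these libraries was known at that point, so its difference is given as a description with no test. The other 6 genes entered as relatives of Eef1a2 and were tested. All 7 passed the filter on low counts.

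The study asked which genes differ between females and males in sensory neurons of defined targets. Naive young adult C57BL/6J mice received wheat germ agglutinin coupled to a green dye (WGA-488) in the hindpaws and thighs, from where nerve endings carry it to the cell bodies. Neurons with the dye were then sorted from lumbar dorsal root ganglia (DRG), which hold the sensory cell bodies outside the spinal cord, and their RNA was sequenced after oligo-dT priming and PCR amplification (SMART-seq2). There were 4 female libraries, from mice in the estrous phase, and 4 male libraries. The groups shared strain, tracer, targets and preparation. The sort took skin and muscle neurons together, so the libraries are bulk mixtures of neuron types. The labels do not name the animals, and p-values therefore measure the spread between these libraries.

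Each library held 4.80 to 7.33 M reads in genes (M, 1e6 reads), and 3 reads correspond to 0.409 to 0.625 counts per 1e6 gene reads (CPM). The elongation factor genes had at least 114 reads in any library. Their summed level ranged from 1202 to 1498 CPM over the 8 libraries, with the highest value in female replicate 4. This library stood apart from the other females, with a chi-square per degree of freedom over genes of 30.1 to 44.9 against each of them, where the other pairs of the same sex had 2.82 to 12.1. The 10 pan-neuronal markers were all detected, with summed levels of 16037 to 21839 CPM.

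Elongation is the cycle in which the ribosome adds amino acids to a growing chain. The GTPase eEF1A brings each aminoacyl-tRNA to the ribosome, the eEF1B complex reloads eEF1A with GTP, and eEF2 moves the ribosome along the mRNA. Mammals have a pair of eEF1A genes. Eef1a1 is active in most cells, while Eef1a2 is the form of mature neurons and of skeletal and heart muscle, where it takes the place of Eef1a1 after birth. Loss of Eef1a2 in mice causes motor neuron degeneration and muscle wasting. Eef1b2, Eef1d and Eef1g encode the subunits of eEF1B. Eef2k encodes a kinase that phosphorylates eEF2 and slows elongation.

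The paralogue pair has similar coding sequences, and reads of 50 bases had to be told apart at each position. The coding regions of Eef1a1 (chr9:78326256-78336958, minus strand, protein-coding, build mm9) and Eef1a2 (chr2:180882358-180891719, minus strand, protein-coding) were identical at 79.8% of 1389 compared bases. No window of 50 coding bases was the same in both genes or within 2 differences. The fewest differences in a window were 3, the median was 10 and the most were 20. The following coding stretches, each within 1 exon of both genes, show how far a read can separate the genes. Sequences are from the mm9 reference, written 5′ to 3′ along the mRNA, and capitals mark bases that differ between the genes. Coding bases 82 to 131 had 4 differences, the fewest among such stretches:
Eef1a1 (chr9:78328331-78328380, minus strand): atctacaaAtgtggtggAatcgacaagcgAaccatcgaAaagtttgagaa
Eef1a2 (chr2:180889981-180890030, minus strand): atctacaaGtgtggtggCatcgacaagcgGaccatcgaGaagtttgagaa
The Eef1a1 stretch had 1 exact match elsewhere in the genome and 6 matches within 2 mismatches, while the Eef1a2 stretch had 0 of either. Coding bases 975 to 1024 had 20 differences, the most of any window:
Eef1a1 (chr9:78327090-78327139, minus strand): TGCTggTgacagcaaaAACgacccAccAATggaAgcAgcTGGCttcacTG
Eef1a2 (chr2:180884386-180884435, minus strand): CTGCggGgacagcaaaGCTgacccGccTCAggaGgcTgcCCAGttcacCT
Coding bases 512 to 561 are shown because no other such stretch of Eef1a1 had more exact copies, with 7 exact matches elsewhere and 12 within 2 mismatches, against 0 for Eef1a2:
Eef1a1 (chr9:78327719-78327768, minus strand): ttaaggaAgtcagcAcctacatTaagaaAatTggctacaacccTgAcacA
Eef1a2 (chr2:180887549-180887598, minus strand): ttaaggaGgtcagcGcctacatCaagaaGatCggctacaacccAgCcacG

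The members therefore differed in how much of their transcript a short read could assign. Of the 2035 windows of 50 bases along the longest coding transcript of Eef1a2, 0 matched the genome outside the gene, exactly or within 2 mismatches. Of the 1745 windows of Eef1a1, 72.6% matched exactly at 25 other loci and 95.5% matched within 2 mismatches. Eef1g (chr19:9041531-9052969, plus strand) was similar, with 68.4% of windows repeated exactly at 8 other loci. Eef2 (chr10:80639376-80645252, plus strand) had exact copies for 10.2% of windows, but 60.4% matched elsewhere within 2 mismatches. Eef1b2 (chr1:63223399-63227060, plus strand) and Eef1d (chr15:75725226-75739986, minus strand) had exact copies for 6.46% and 6.16% of windows. Eef2k (chr7:127986345-128050733, plus strand) had exact copies for 0.333%. The counting program set aside reads with several alignments, 8.57 to 13.3 M alignments per library, so the counts of Eef1a1 and Eef1g can miss part of their reads. Sex differences of one gene share this limit in all libraries.

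**Figure D1:**
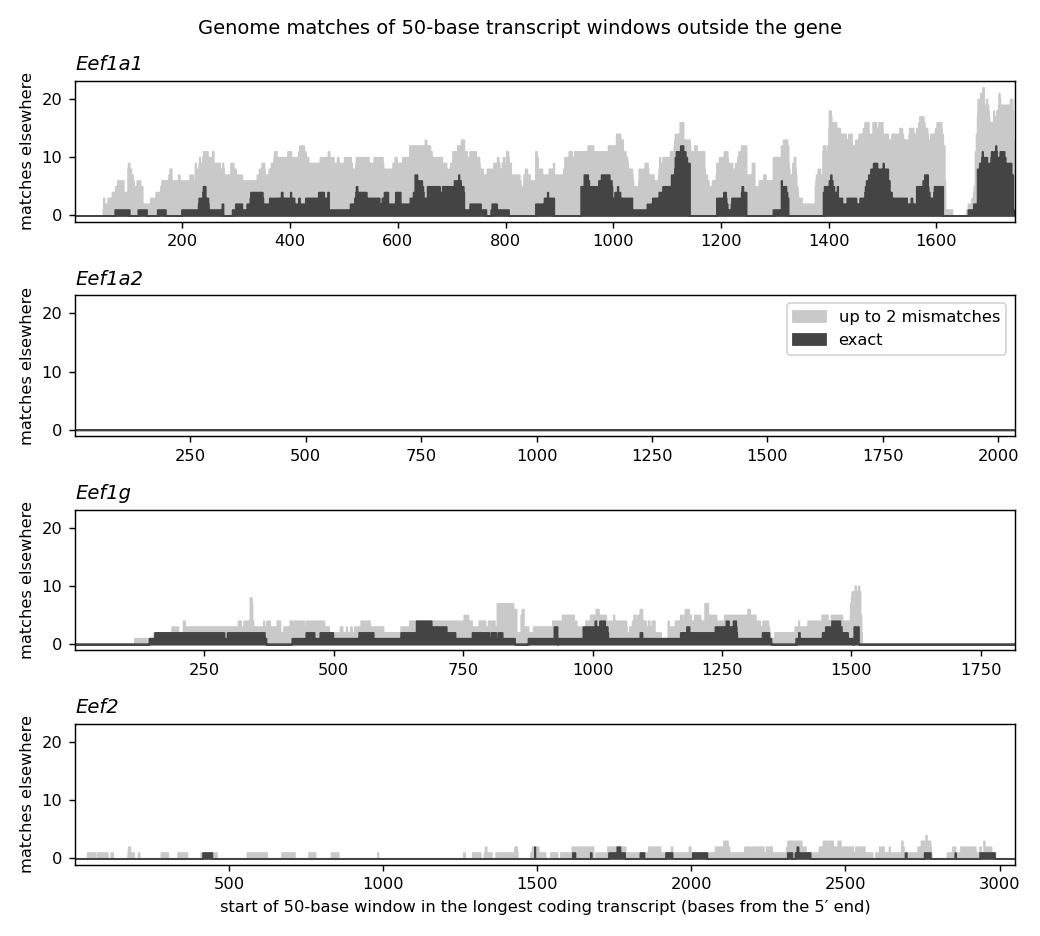
Matches elsewhere in the genome of each 50-base window along the longest coding transcript of 4 elongation factor genes. The horizontal axis is the start of the window in bases from the 5′ end and the vertical axis the number of matches outside the gene, exact (dark) or with up to 2 mismatches (light). Exact copies covered 72.6% of windows in Eef1a1, 68.4% in Eef1g and 10.2% in Eef2, where 60.4% matched within 2 mismatches, and Eef1a2 had 0 in all 2035 windows.

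Exons of Eef1a2 overlapped no other annotated gene. Exons of Eef1a1 shared 108 bases with the microRNA gene mmu-mir-703 on the same strand, and those of Eef2k shared 101 bases with Gm15774 on the opposite strand. Neither overlapping gene was among the symbols counted, and whether the counting used strand is not given in the sources used here.

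Eef1a2 was higher in every female library than in every male library. The female libraries, replicates 1 to 4, had 57.2, 63.2, 50.8 and 63.5 CPM, from 244 to 416 reads. The male libraries had 31.5, 29.0, 32.7 and 27.5 CPM, from 186 to 231 reads. The lowest female value was above the highest male value, and the levels within each sex lay close together. The means were 58.7 ± 5.98 and 30.2 ± 2.36 CPM (SD, n = 4 per sex). On the log2 scale the fold change, female over male, was 0.94 ± 0.13 (SE), a 1.92-fold difference. Without any 1 library it lay between 0.90 and 0.99. Eef1a2 was chosen on this contrast, so no test of it is given.

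Eef1a1, the paralogue found in most cells, overlapped between the sexes and did not pass the test. Female libraries had 329, 361, 311 and 419 CPM, and male libraries had 375, 331, 334 and 357 CPM. The male values lay within the female range. The mean of females was 355 ± 47.4 CPM and that of males 349 ± 20.6 CPM (SD, n = 4 per sex), a log2 fold change of 0.00 ± 0.11 (SE; edgeR adjusted p = 0.997). The 95% interval of the fold change was 0.841 to 1.19.

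The balance of the pair was followed in each library as the share of Eef1a2 in the summed level of both genes per kb of exon. It was 14.5%, 14.5%, 13.7% and 12.8% in females and 7.55%, 7.83%, 8.68% and 6.97% in males, with means of 13.9% ± 0.790 and 7.76% ± 0.715 (SD, n = 4 per sex). Eef1a1 was the more abundant form in all 8 libraries. In reads, there were 5.72 to 6.60 Eef1a1 reads for each Eef1a2 read in females and 10.2 to 13.0 in males. Because most of Eef1a1 is repeated elsewhere, the share depends on the length used. Per kb of windows found nowhere else it was 3.75% ± 0.238 in females against 1.99% ± 0.195 in males (SD, n = 4 per sex). The sexes did not overlap with either length. These shares contain Eef1a2 itself and are also a description.

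**Figure D2:**
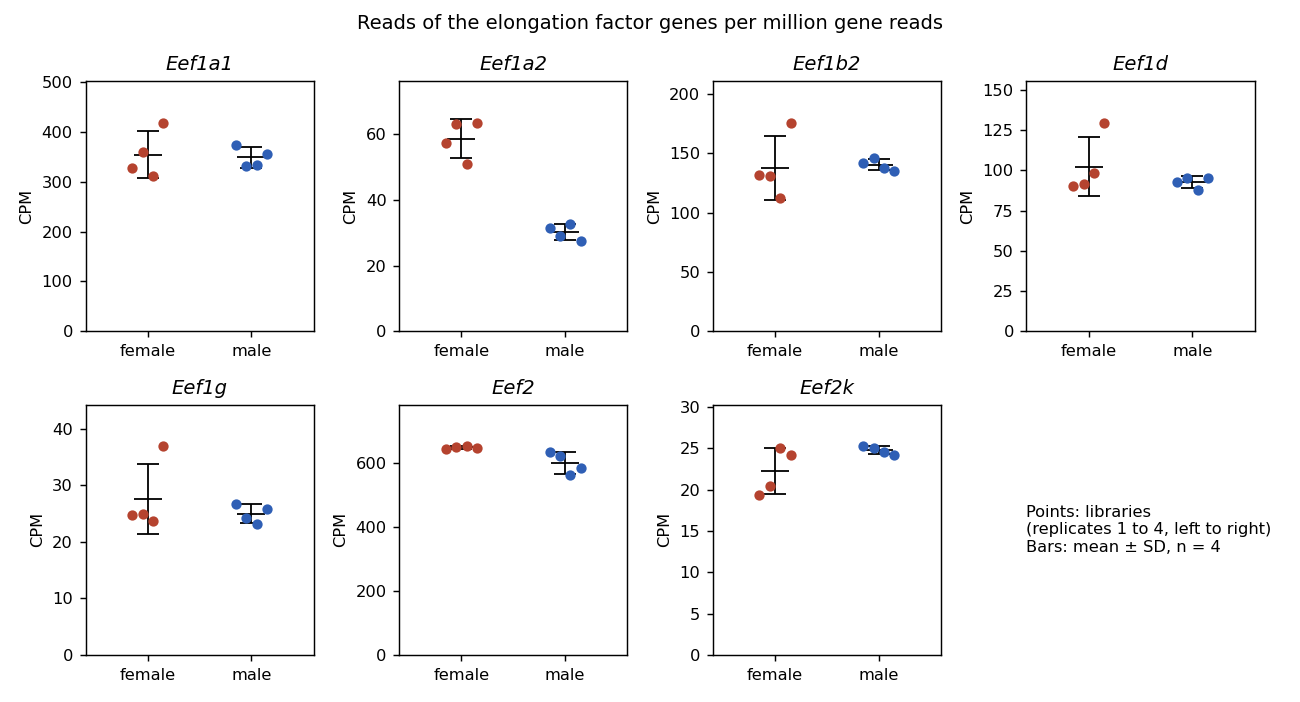
Reads per 1e6 gene reads (CPM, linear axes from 0) of each elongation factor gene in the 4 female (red) and 4 male (blue) libraries, with the mean ± SD of each sex. The sexes are separate for Eef1a2, at 50.8 to 63.5 CPM against 27.5 to 32.7 CPM, and for Eef2 by a small margin, and they overlap for the other 5 genes.

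The eEF1B subunits did not pass the test. Eef1b2, a nucleotide exchange subunit, was at 132, 131, 112 and 176 CPM in females and at 142, 146, 138 and 135 CPM in males. Its log2 fold change was -0.05 ± 0.13 (SE; edgeR adjusted p = 0.940). Females spread widely around the male values, with both the lowest and the highest level among them. Eef1d, the other exchange subunit, had 90.0, 91.8, 98.1 and 130 CPM in females and 93.0, 95.4, 87.7 and 95.3 CPM in males, a log2 fold change of 0.12 ± 0.13 (SE; edgeR adjusted p = 0.836). Eef1g, the structural subunit, had 24.7, 25.0, 23.7 and 36.9 CPM in females and 26.7, 24.2, 23.1 and 25.9 CPM in males. Its log2 fold change was 0.12 ± 0.16 (SE; edgeR adjusted p = 0.872). In all 3 subunit genes and in Eef1a1 female replicate 4 had the highest level of the 8 libraries. Without that library the log2 fold changes were -0.08 for Eef1a1, -0.18 for Eef1b2, -0.01 for Eef1d and -0.05 for Eef1g, none past the threshold. In the same library Eef1a2 was 63.5 CPM, close to female replicate 2 with 63.2 CPM.

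The translocase gene Eef2 differed little in size but was ordered by sex. It was at 646, 652, 653 and 649 CPM in females and at 636, 623, 562 and 584 CPM in males. Every female value was above every male value, while the highest male and the lowest female lay close together. Females averaged 650 ± 3.55 CPM and males 601 ± 34.1 CPM (SD, n = 4 per sex). The log2 fold change was 0.09 ± 0.09 (SE), a 1.07-fold difference with a 95% interval of 0.928 to 1.23, and the edgeR adjusted p-value was 0.825. Groups that do not overlap were found for 1 of the 6 members other than Eef1a2 and for 5.47% of all tested genes, 2.98% with females higher and 2.49% with males higher. Within a sex Eef2 was one of the steadiest genes measured, with an SD of 0.0583 on the log2(CPM + 1) scale, smaller than that of 99.6% of tested genes, where the median gene had 0.255. This rank takes in genes of all depths, and counting error is smaller at high counts such as the 3136 to 4696 reads of Eef2.

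Eef2k, the kinase of eEF2, pointed the other way and did not pass. Its level was 19.4, 20.5, 25.0 and 24.3 CPM in females and 25.2, 25.1, 24.6 and 24.3 CPM in males. Female replicates 1 and 2 were below all males, and the other two were within the male range or next to it. Its log2 fold change was -0.18 ± 0.14 (SE; edgeR adjusted p = 0.805), and without 1 library it lay between -0.24 and -0.11. There were 26.1 to 33.3 Eef2 reads for each Eef2k read in females and 22.9 to 25.2 in males, a gap between the sexes that is small beside the spread among females. Of 4 read ratios between members that were computed, this one and Eef1a1 per Eef1a2 did not overlap between the sexes, and Eef1b2 per Eef1d (1.14 to 1.47 in females, 1.42 to 1.57 in males) and Eef1d per Eef1g (3.52 to 4.13 in females, 3.48 to 3.94 in males) did. The ratios are a description and were not tested, and the share without overlap among other gene pairs was not computed. Eef1a1 per Eef1a2 holds Eef1a2, which was chosen on its sex difference.

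Of the 6 members other than Eef1a2, 0 passed the edgeR adjusted p of 0.05. Among all 12512 genes tested, leaving out 6 sex-linked ones, 5 (0.04%) passed it, 1 higher in females (0.00799%) and 4 higher in males (0.032%). The count and the split changed with the method, as given under the processing alternatives. Eef1a2 is among the 12512 genes and was chosen on this contrast, so these counts are not free of that choice. Of the same 6 members 0 had an unadjusted p under 0.05, where 7.07% of all tested genes had one, 4.43% with females higher and 2.64% with males higher. DESeq2 and limma-voom also called 0 of them. Their median log2 fold change was 0.05, and that of all tested genes 0.00. The 95% intervals of the fold change, female over male, were 0.841 to 1.19 for Eef1a1, 0.787 to 1.19 for Eef1b2, 0.889 to 1.33 for Eef1d, 0.847 to 1.40 for Eef1g, 0.928 to 1.23 for Eef2 and 0.717 to 1.09 for Eef2k.

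Levels were then compared between the genes, per kb of exon. Reads per kb of exon and per 1e6 gene reads (RPKM) are given as the mean ± SD of n = 8 libraries. Eef2 had 202 ± 11.1 RPKM, Eef1a1 174 ± 16.8 RPKM and Eef1b2 71.8 ± 9.27 RPKM. Lower levels were found for Eef1d with 31.9 ± 4.37 RPKM, Eef1a2 with 21.3 ± 7.58 RPKM, Eef1g with 14.1 ± 2.38 RPKM and Eef2k with 3.39 ± 0.328 RPKM. Neighbours in this order were compared with a two-sided exact sign-flip permutation test over the 8 libraries, adjusted over the 6 pairs, in which the smallest unadjusted p that can be reached is 0.0078. The 4 pairs without Eef1a2 passed. Eef2 was above Eef1a1 in 8 of 8 libraries, by 0.22 ± 0.15 on the log2 scale (SD, n = 8; exact adjusted p = 0.0117), although their ranges overlapped. The pairs with Eef1a2 pool sexes between which that gene was known to differ, so they are given as values with no test. Eef1d was above Eef1a2 in 7 of 8 libraries, at 29.4 to 42.4 against 24.4 to 30.5 RPKM in females and 28.7 to 31.2 against 13.2 to 15.7 RPKM in males. In the remaining one, female replicate 2, the levels were 30.0 and 30.3 RPKM. Eef1a2 was above Eef1g in 7 of 8 libraries, with Eef1g at 12.7 to 19.8 RPKM in females and 12.4 to 14.3 RPKM in males. In male replicate 4 the order was turned, with 13.2 and 13.9 RPKM. The place of Eef1a2 thus lay near Eef1d in females and near Eef1g in males.

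The places of Eef1a1 and Eef1g in the order changed with the length used. Per kb of windows found nowhere else, Eef1a1 was at 737 ± 71.1 RPKM and stood above Eef2 with 229 ± 12.6 RPKM (SD, n = 8 each). Eef1g was at 45.9 ± 7.74 RPKM, above Eef1d with 37.2 ± 5.10 RPKM and Eef1a2 with 21.8 ± 7.77 RPKM (SD, n = 8 each). On this scale the 3 subunit genes of eEF1B lay closer together, and Eef1a2 was below all of them. This scale takes every read as coming from such a window, and a read that falls on a copied window with the best match in the gene would make it too high. Which transcript forms were expressed was not determined, so the places of the other genes also rest on the annotated lengths.

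**Figure D3:**
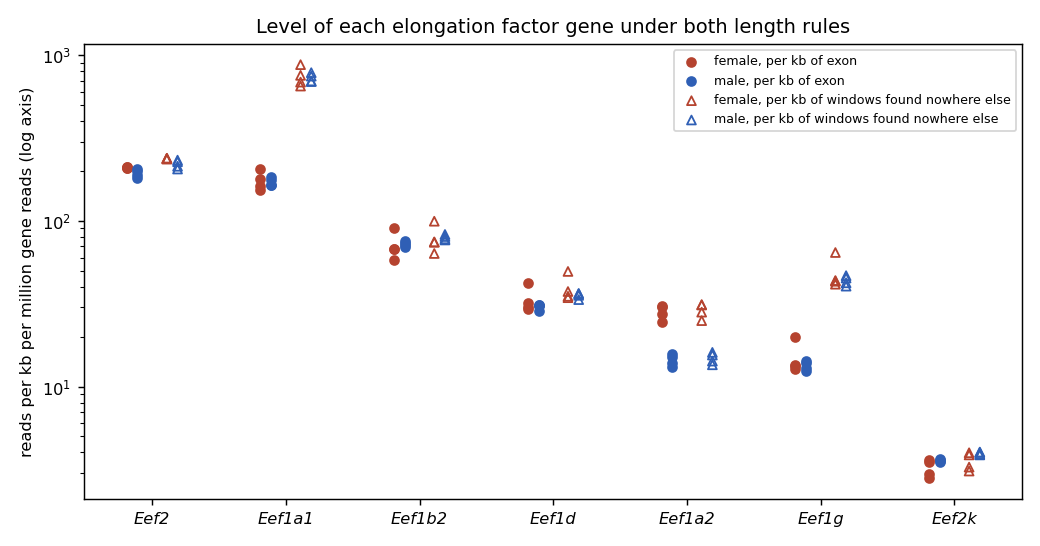
Level of each elongation factor gene in every library on a log axis, in reads per kb and per 1e6 gene reads, with length taken as all exons (filled circles) or as 50-base windows found nowhere else in the genome (open triangles). Eef1a1 moved from a mean of 174 to 737 and Eef1g from 14.1 to 45.9 between the scales, while Eef1a2 stayed near 21.

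Other genes of the elongation pathway gave a setting for the Eef1a2 difference. Of 44 genes listed for termination and rescue, other elongation factors, modification of the factors and control of eEF2, 43 matched a counted symbol and were tested. In the edgeR fit 0 passed the adjusted p of 0.05 and 0 had an unadjusted p under 0.05, against 7.07% of all tested genes. DESeq2 gave 0 and limma-voom gave 1 with an unadjusted p under 0.05, and both called 0 after adjustment. By sign, 15 were higher in females and 28 lower, with a median log2 fold change of -0.07, where 6342 of all tested genes were higher and 6170 lower. The balance of signs in these lists was not tested.

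Termination, recycling and rescue genes held the lowest value. Abce1, the ATPase that splits ribosomes after termination, had 109 ± 38.3 CPM in females against 153 ± 7.35 CPM in males (SD, n = 4 per sex). Its log2 fold change was -0.50 ± 0.24 (SE; edgeR adjusted p = 0.711). The sexes did not overlap, as in 5.47% of all tested genes. The females ranged from 53.1 to 135 CPM, with the lowest level in female replicate 4. Without that library the log2 fold change of Abce1 was -0.27 ± 0.08 (SE; edgeR adjusted p = 0.302). At the other end of this list Pelo, a rescue factor for stalled ribosomes, had a log2 fold change of 0.41 from 9 to 35 reads per library. Female replicate 4 had the highest level of Pelo, 5.90 CPM, and without it the log2 fold change was 0.03 ± 0.33 (SE).

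The other elongation factors were all below 0 in log2 fold change, 4 of 4, and none passed. Eif5a, the hypusine-bearing factor that relieves pausing, had 473 ± 77.9 CPM in females against 529 ± 16.5 CPM in males (SD, n = 4 per sex). Eef1e1, also known as p18 and part of the multi-tRNA synthetase complex, had the lowest value, with 47.6 ± 9.36 against 57.8 ± 1.59 CPM (SD, n = 4 per sex) and a log2 fold change of -0.30 ± 0.14 (SE; edgeR adjusted p = 0.707). Eefsec, the factor for selenocysteine, had the highest with -0.04. It was -0.27 ± 0.12 (SE) without female replicate 4 and 0.07 ± 0.19 (SE) without female replicate 3, so its sign depended on single libraries. The enzymes that make hypusine on eIF5A, Dohh and Dhps, had log2 fold changes of 0.07 and 0.12, and both had -0.04 without female replicate 4.

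Genes that modify the members gave small values. The 7 diphthamide genes, whose products build the modified histidine of eEF2 that diphtheria toxin attacks, ranged from -0.29 for Dph7 to -0.04 for Dph5 in log2 fold change, all below 0 and none past the test. Dph1, Dph5 and Dnajc24 were above 0 in some fits without 1 library, up to 0.07 for Dnajc24 without male replicate 4. Of 5 lysine methyltransferase genes of eEF1A and eEF2, 4 were tested, between -0.16 for Eef1akmt2 and 0.26 for Eef2kmt. Eef2kmt, which methylates eEF2, had 29.4 ± 3.51 against 24.2 ± 2.58 CPM (SD, n = 4 per sex), without overlap, as in 5.47% of all tested genes. The mitochondrial factors, which serve the ribosomes inside that organelle, lay between -0.12 for Gfm2 and 0.06 for Tufm. Without 1 library Tufm ranged from -0.07 to 0.15 and Gfm2 from -0.14 to -0.07.

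Genes that control eEF2 kinase or the phosphorylation of eEF2 ranged from -0.41 for Prkaa1 to 0.53 for Rps6ka1 in log2 fold change, and 0 of 13 passed. Prkaa1, a catalytic subunit of AMP-activated kinase, had 111 ± 59.8 CPM in females, from 24.3 to 156 CPM, against 146 ± 9.99 CPM in males (SD, n = 4 per sex). The lowest female level was that of female replicate 4, and without it the log2 fold change of Prkaa1 was -0.07 ± 0.09 (SE). Rps6ka1, an S6 kinase gene of the MAP kinase pathway, had 5.28 ± 1.82 CPM in females against 3.58 ± 1.12 CPM in males (SD, n = 4 per sex), from 14 to 35 reads per library. Its log2 fold change was 0.32 without male replicate 1 and 0.75 without female replicate 1.

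**Figure D4:**
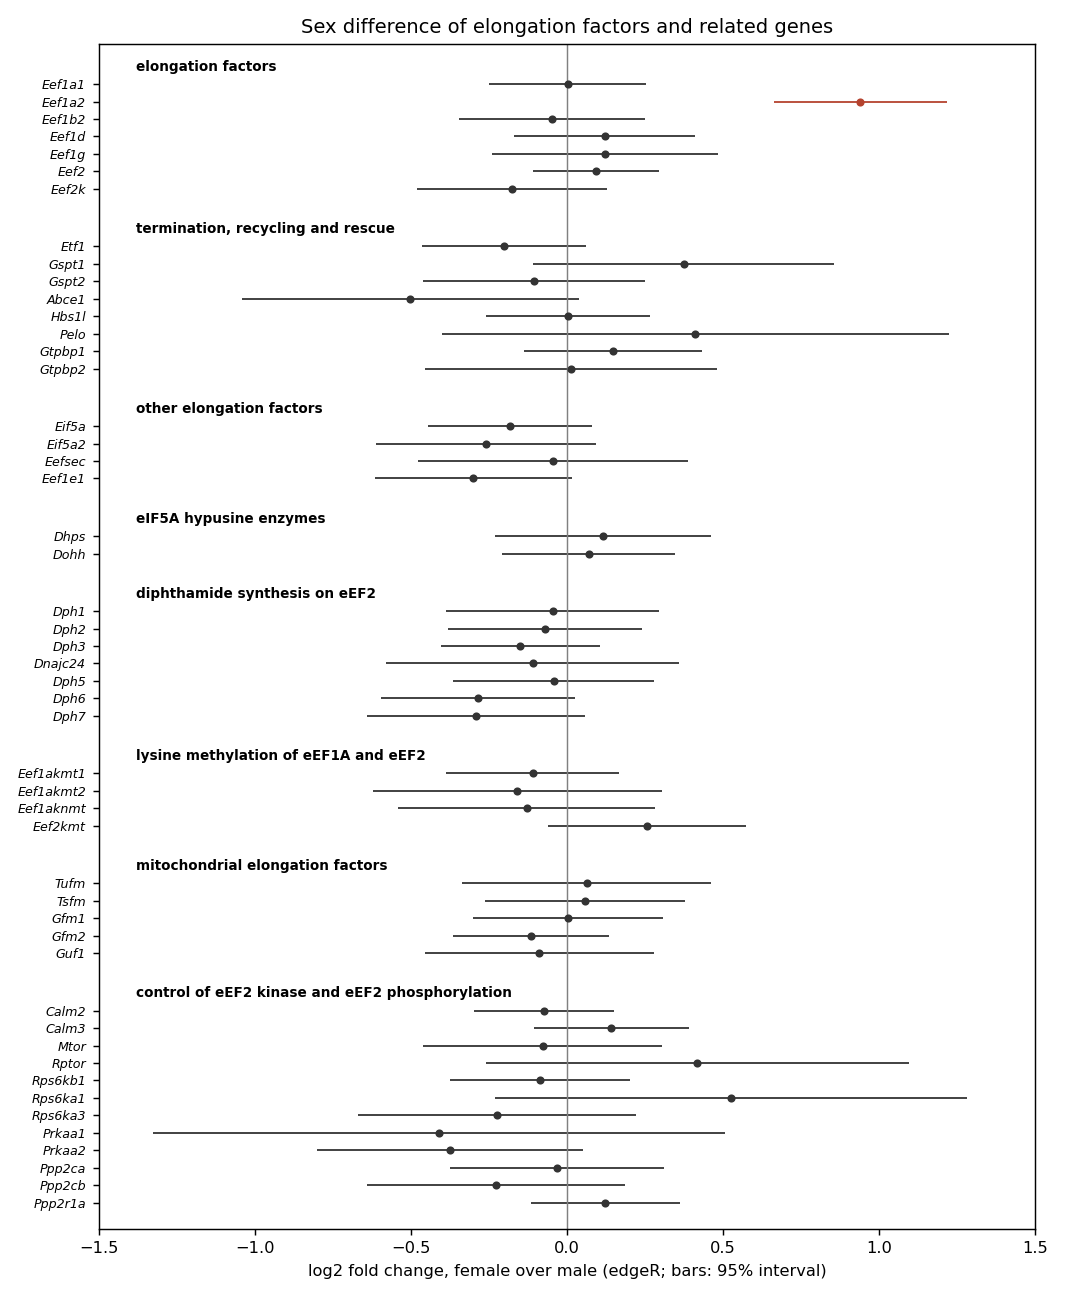
Log2 fold change, female over male, of the elongation factor genes and of tested pathway genes, with 95% intervals from the edgeR fit over all genes. Eef1a2 (red), chosen on this contrast, is at 0.94, the other members lie between -0.18 and 0.12 and the pathway genes between -0.50 and 0.53. The interval drawn for Eef1a2 takes no account of that choice and is not a test.

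Eef1a2 is also a muscle gene, and the sort could hold neurons of several sizes and other cells of the ganglion. Markers of these cell types were therefore summed in each library. In bulk RNA, fewer cells of a type and less RNA per cell cannot be told apart. Skeletal muscle markers were near 0. Of 10 such genes, Myh2, Tnnt3, Tnni2 and Tnnc2 had 0 reads in all libraries, Myh1 and Myh4 had at most 3 reads in any, and the summed level was 5.03 to 6.57 CPM in females and 2.81 to 4.37 CPM in males. The sexes did not overlap in this sum, and its part in the Eef1a2 difference was not tested beyond these levels.

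Markers of large myelinated neurons summed to 9368 to 14738 CPM in females and 7072 to 11275 CPM in males, and the sums overlapped. By gene, 11 of 12 were higher in females, 3 of them with an unadjusted p under 0.05. Of all tested genes 7.07% had one, 4.43% with females higher and 2.64% with males higher. In females, replicates 1 to 4, the sums were 9368, 9548, 13954 and 14738 CPM beside 57.2, 63.2, 50.8 and 63.5 CPM of Eef1a2. In males they were 7072, 10975, 11275 and 9315 CPM beside 31.5, 29.0, 32.7 and 27.5 CPM of Eef1a2. With the mean marker level as a covariate in the edgeR fit, the log2 fold change of Eef1a2 was 0.98 ± 0.15 (SE). The part of large neurons in the Eef1a2 difference was not tested beyond this fit. Small unmyelinated neuron markers summed to 7175 to 8889 CPM in females and 8431 to 11434 CPM in males. Of these 10 genes 3 were higher in females and the rest lower. The 3 with an unadjusted p under 0.05 were Calca and Tac1, both neuropeptide genes and lower in females, and Sst, the somatostatin gene, which was higher in females with a log2 fold change of 1.46 ± 0.34 (SE). The list had a median log2 fold change of -0.25 where that of the large neuron markers was 0.41. The part of small neurons in the Eef1a2 difference was not tested.

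Satellite glia and Schwann cell markers were higher in every female library, with sums of 11752 to 15137 CPM against 5554 to 11323 CPM. Of the 13 tested, 11 were higher in females, 4 with an unadjusted p under 0.05, where 7.07% of all tested genes had one. The ratio of the mean sums, female over male, was 1.41. In males, replicates 1 to 4, the glial sums were 5554, 9871, 11323 and 9071 CPM beside 31.5, 29.0, 32.7 and 27.5 CPM of Eef1a2. In females they were 11752, 11752, 11876 and 15137 CPM beside 57.2, 63.2, 50.8 and 63.5 CPM of Eef1a2. With the glial marker level as a covariate, the log2 fold change of Eef1a2 was 0.95 ± 0.18 (SE). The glial sums did not overlap between the sexes, so this fit cannot fully tell glia and sex apart. The part of glia in the difference was not tested beyond it. Fibroblast markers did not overlap either, at 99.4 to 150 CPM in females and 44.6 to 84.7 CPM in males. Macrophage markers had 7.15 to 19.7 CPM and 2.73 to 8.75 CPM, and endothelial and blood markers 2.92 to 13.6 CPM and 1.82 to 4.44 CPM, with the 4 haemoglobin genes listed at 0 reads. Haemoglobin genes come as near-identical pairs, so reads with several alignments that were set aside can leave such a 0. The part of the fibroblast, macrophage and endothelial markers in the Eef1a2 difference was not tested.

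**Figure D5:**
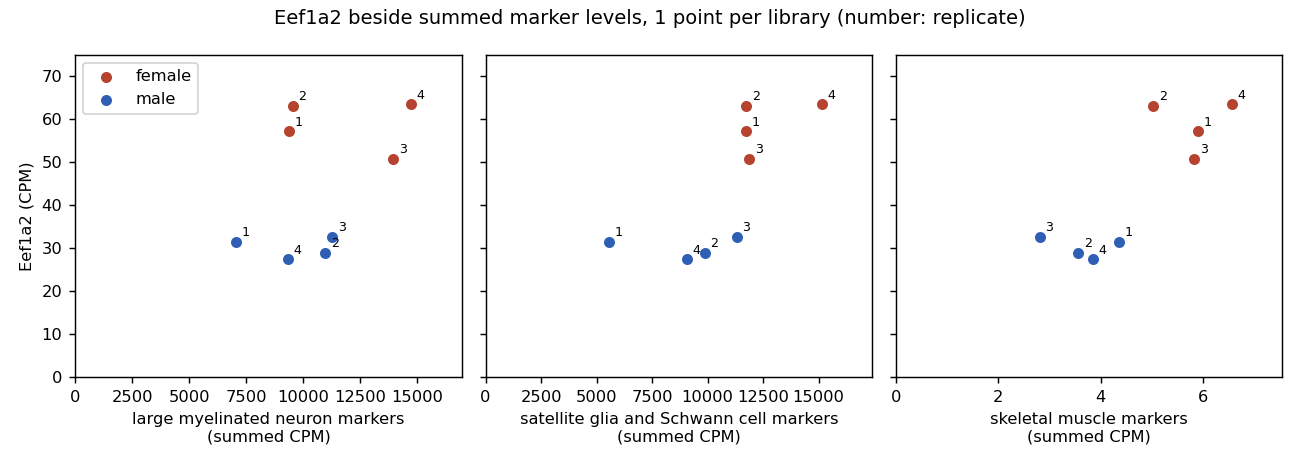
Eef1a2 in CPM (vertical axis) beside the summed CPM of large myelinated neuron, glial and skeletal muscle markers (horizontal axes), 1 point per library with its replicate number, females in red and males in blue. The female points lie at 50.8 to 63.5 CPM and the male points at 27.5 to 32.7 CPM. On the horizontal axes the sexes overlap for the large neuron sums and do not overlap for the glial and skeletal muscle sums.

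The genes whose profile over the 8 libraries was nearest to that of Eef1a2 were looked up among the 12511 other genes, by the root mean square difference of centred log2(CPM + 1) values. Gnb3, a G-protein beta subunit, was the nearest with 0.163, followed by Tesk1, a protein kinase, with 0.179, Pppde1 with 0.192, Dcn, the matrix proteoglycan decorin, with 0.196 and Zfp369, a zinc finger gene, with 0.200. The median over genes was 0.529, and a gene at one level in all libraries would have 0.481. These profiles share the same libraries and were sought for their likeness, so all 5 were higher in females without overlap. Gnb3 had 2.57 ± 0.675 CPM in females against 1.03 ± 0.240 CPM in males, and Dcn 34.4 ± 0.905 against 22.1 ± 2.78 CPM (SD, n = 4 per sex). No other member was among these genes. The nearest of them was Eef2 with 0.430, and Eef1a1 had 0.471.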

How the data were processed

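Single reads of 50 bases were taken from 4 female and 4 male libraries of sorted, back-labelled DRG neurons. TopHat2 was used by the authors for alignment to mouse build mm9 and HTSeq-count for counting, and the authors deposited raw counts per gene symbol, without normalization. Versions, annotation release and strand option are not given in the sources used here. Reads carry no molecular identifiers, so floors cover counting error only. Groups and replicate numbers came from the titles in the labels.

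The sexes were compared by a quasi-likelihood fit in edgeR 4.0.16 (R 4.3.3; TMM scaling, default expression filter, sex as the only term), with Benjamini-Hochberg adjustment over 12518 genes. Among these, 6 sex-linked genes were left out of all counts of genes. The scripts were tested on simulated data. Levels per kb used the exons of protein-coding transcripts in GENCODE M1. Every 50-base window of the longest coding transcript of each member was searched on both strands of the mm9 sequence, allowing up to 2 mismatches. The libraries were counted as separate samples as labelled. Same-sex pairs had a chi-square per degree of freedom from 2.82 upwards, which takes reads as independent and cannot show that amplified libraries came from separate samples.

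The members, the pathway and marker lists and the tests were chosen with earlier results of these data known. The genes named were the 7 members, any pathway gene with an unadjusted edgeR p under 0.05 (there were 0), the ends of each pathway list by log2 fold change and the 5 nearest profiles to Eef1a2. Some other pathway genes were named as examples after their values were seen. Of the pathway genes, 6 were matched through older symbols where the newer one was not counted. As alternatives, limma-voom (limma 3.58.1), DESeq2 1.42.0, other scaling and filters, a replicate block, marker covariates, leaving out each library in turn and, for levels, other lengths were used. The labels give no batch or date, so nothing could be recomputed within batches. Amino acid sequences were not used here, and 1 gene of the pathway lists is counted but not reported here by name or in a figure. Python 3.11.15 with pandas 2.3.3, numpy 2.4.6, scipy 1.17.1 and matplotlib 3.10.9 was used for tables and figures.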

Additional observations from a re-analysis of the deposited data

Results flagged for a closer look

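In 34 comparisons of 1 library with the other 3 of its sex, 4 values stood apart, where chance alone gives about 1.7, and all 4 were in female replicate 4. In each, the gap to the nearest other female took up more of the range of the 4 females than Dixon's 95% critical value allows. Eef1g was at 36.9 CPM there and at 23.7 to 25.0 CPM in the other females, a gap of 0.906 of the range. The pan-neuronal markers summed to 21839 CPM against 16037 to 16815 CPM, a gap of 0.866 of the range. Satellite glia and Schwann cell markers summed to 15137 CPM against 11752 to 11876 CPM, a gap of 0.963. Endothelial and blood markers summed to 13.6 CPM against 2.92 to 4.16 CPM, a gap of 0.884. Eef1a2, at 63.5 CPM in this library, did not stand apart, and without it the log2 fold change of Eef1a2 was 0.90 ± 0.11 (SE).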

How the results depend on the processing

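The log2 fold change of Eef1a2 lay between 0.90 and 0.99 under all 17 alternatives. These use the libraries on which Eef1a2 was chosen, so they are no separate support for its difference. Of the other 6 members, 0 were called under any alternative (edgeR, DESeq2 and limma-voom). Without female replicate 4, 1 of these 6 had an unadjusted p under 0.05, Eef1b2. Members near 0 changed sign, and the cause was not tested: Eef1a1 was at -0.00367 with limma-voom and -0.00359 with the replicate block, and without 1 library it ranged from -0.0815 to 0.0528, Eef1b2 from -0.181 to 0.0302, Eef1d from -0.00813 to 0.185 and Eef1g from -0.045 to 0.179. The count of genes called by sex, 5, was 42 with DESeq2, 1 with the replicate block and 1 to 78 without 1 library, highest without female replicate 1 and lowest without male replicate 4. Of these genes 1 of 5 was higher in females, but 21 of 42 were with DESeq2, 68 of 78 without female replicate 1, and 0 without female replicate 2 or without any 1 male library. It was 0 in edgeR with the glial or the large neuron covariate, where 319 and 359 genes had an unadjusted p under 0.05.

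Pathway genes with an unadjusted p under 0.05 were 0 in the edgeR fit, 1 with limma-voom, 1 without the low-count filter, 2 with the replicate block and 0 to 5 without 1 library. The 5 without female replicate 1 were Gspt1, Abce1, Rptor, Rps6ka1 and Prkaa2, and the 5 without female replicate 4 were Abce1, Eif5a, Eef1e1, Dph7 and Calm2. None passed after adjustment. With the longest transcript as length, Eef2 was above Eef1a1 by 0.0451 on the log2 scale (exact permutation test, adjusted p = 0.414). With windows found nowhere else as length, Eef2 over Eef1a1 became -1.68 and Eef1a2 over Eef1g -1.14, since 72.6% of Eef1a1 and 68.4% of Eef1g windows drop out of the length. The share of Eef1a2 was 12.5% in females and 6.94% in males with the longest transcript, 3.75% and 1.99% with windows found nowhere else, and 13.7% to 14.2% and 7.45% to 8.02% without 1 library. Replicate numbers did not pair the samples: libraries of the same number had correlations of 0.0939, -0.109, 0.144 and 0.00476 of their deviations from the group means, and not every library correlated best with its own number. The block left the Eef1a2 difference at 0.94. Levels of genes with repeated sequence are limited by read length, and 4 libraries per sex limit the size of difference that can be seen.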
